A study of Mus musculus with 65 samples.

Results

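White adipose tissue from the abdomen of male wild-type C57BL/6J mice was compared between 18 and 4 months of age. 8 of the 65 exon arrays of the series make up the comparison, 1 array and 1 mouse each: all 5 arrays of the 18-month group, and replicates 1, 2 and 3 of the 4-month group. 4-month replicates 4 and 5 were set aside because they carried transcripts of the epididymis, the sperm-storing duct that lies against one of the abdominal fat pads. The arrays were thus chosen by their measured levels of epididymis transcripts, which are given as a description. The mice were untreated and housed in a light/dark cycle; the labels name neither the abdominal depot that was dissected nor the hour of dissection. The series holds 65 arrays in 13 groups from 25 mice, with ventral skin, thigh muscle, bone and thymus beside adipose tissue, and the study asked how gene expression and exon usage change with age. A gene's value is the mean log2 signal of the probe sets that carry its symbol alone, which gave 15830 genes with a median of 9 probe sets, and every change is 18 months minus 4 months on the log2 scale.

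White adipose tissue stores triglyceride in large unilocular adipocytes, which secrete leptin and adiponectin. Between them lie progenitors, vessels, nerve and immune cells, and the pads inside the abdominal cavity are covered by mesothelium, a flat epithelium that subcutaneous fat lacks. Adipocytes, like most cells, also run a circadian clock, a transcriptional loop that sets the daily timing of many metabolic genes.

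The defining markers of adipocytes were high on every array. Adipoq, which encodes adiponectin, was at 12.73, 12.82, 12.77, 12.61 and 12.67 in the 5 18-month arrays and at 12.52, 12.79 and 12.82 in the 3 4-month arrays. On the 2 arrays set aside the epididymal genes Adam7 (12.17 and 11.86) and Crisp1 (12.49 and 12.91) stood at the level of Adipoq, against 3.13 to 3.46 for Adam7 and 2.75 to 3.12 for Crisp1 on the 8 arrays compared. 17 of 29 measured epididymis markers were at least 2 log2 units above all 8 arrays on 1 or both of these arrays, which is what the choice of arrays rested on.

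Muscle transcripts marked 2 of the 18-month arrays. Atp2a1, the calcium pump of fast muscle fibres, was at 8.78 in 18-month replicate 4 and 10.83 in replicate 5, but at 3.24 to 3.61 in the other 18-month arrays and at 3.28 to 3.39 in the 4-month arrays; the flag required 1 log2 unit above the highest 4-month array, which the highest array without a flag exceeded by 0.22. 4-month muscle itself averaged 13.32. 21 of 25 measured muscle fibre genes were higher in both flagged arrays than in the other 18-month arrays. Atp2a1, which set the flag, is on this list, so the count in part restates the flag. The same share over all genes was not determined. Replicate 5 also carried Ucp1, the uncoupling protein of brown and beige fat, at 9.54, against 2.90 to 3.08 in the other 18-month arrays and 2.84 to 3.46 in the 4-month arrays.

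The arrays also fell into 2 kinds that crossed the age groups. Upk1b, a uroplakin of mesothelium, was at 3.28 and 3.30 in 18-month replicates 4 and 5 and at 3.18 in 4-month replicate 1, but at 8.58 to 9.28 in 18-month replicates 1 to 3 and at 9.09 and 9.21 in 4-month replicates 2 and 3. Msln, which encodes mesothelin, split in the same places (3.23 and 3.17 against 5.42 to 6.74 at 18 months, and 3.18 against 7.40 and 8.13 at 4 months). In the opposite sense, the decoy receptor gene Il1r2 was at 7.25 and 7.91 in 18-month replicates 4 and 5 and 6.89 in 4-month replicate 1, and at 2.77 to 3.01 on the other 5 arrays. The developmental transcription factor Tbx15 was at 6.43, 6.92 and 5.90 on those same 3 arrays and at 3.40 to 3.84 on the other 5. An array counted as without mesothelial transcripts when its Upk1b was below 5, so the Upk1b split follows from that rule. The 2 kinds of array did not overlap for 1975 of 15830 genes, 719 higher and 1256 lower on the arrays without. The 2 age groups did not overlap for 1033 genes. In all, 68 genes were separated by at least 1 log2 unit between the 3 arrays without and the 5 with mesothelial transcripts. 2 of 5 18-month arrays and 1 of 3 4-month arrays lacked these transcripts, so results are also given with the kind of array as a term in the fit. 4-month replicate 1 further carried lymphocyte transcripts: the B cell receptor component Cd79b was at 9.65 there, against 4.14 to 6.54 in the 18-month arrays and 5.64 and 5.06 in the other 4-month arrays.

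**Figure D1:**
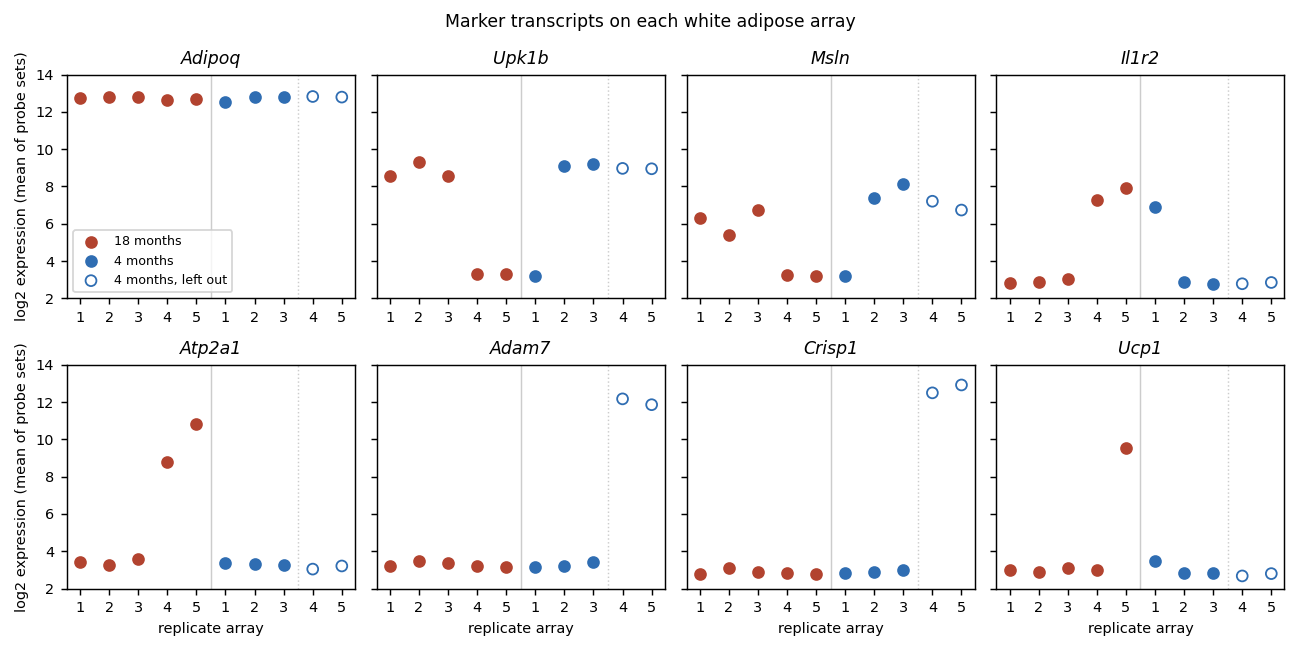
log2 expression of 8 marker genes on each adipose array, with 18-month arrays on the left (red), 4-month arrays on the right (blue) and the 2 arrays set aside as open circles. Adipoq is flat near 12.7, Upk1b and Msln are near 3 in 18-month replicates 4 and 5 and 4-month replicate 1, Atp2a1 is raised in 18-month replicates 4 and 5, and Adam7 and Crisp1 are near 12 on the open circles alone.

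29 of 15830 genes passed an adjusted p of 0.05 between 18 and 4 months (0.183% of the genes; limma with Benjamini-Hochberg adjustment over all genes, one fit over 63 arrays), 16 of them higher (0.101%) and 13 lower (0.0821%) at 18 months. 16 genes also changed at least 2-fold and are called differentially expressed (DE) here (0.101%). 11 of these rose (0.0695%; Arntl, Nfil3, Cdkn1a, Nap1l5, Dtx4, Rmnd1, Adamts1, Glrx, Zdhhc2, Atp6v0d2 and Fam110c) and 5 fell (0.0316%; Dbp, Per3, Nr1d2, Tef and Kcnn4). 6 of these 16 belong to the circadian clock. The groups did not overlap for 1033 genes (6.53%), 513 higher (3.24%) and 520 lower (3.28%). An unadjusted p below 0.05 was reached by 1018 genes (6.43%). In whole tissue, a lower value cannot separate fewer cells of a type from less RNA per cell. The spread in this fit comes from all 5 tissues: with the 8 adipose arrays alone limma passed 0 genes after adjustment, with 1252 (7.91%) below 0.05 before it. None of the 319 genes that were at least 3 log2 units higher in 4-month muscle than in adipose tissue was called. At the called share of 0.101% over all genes few if any of them would be expected. The count thus cannot show whether muscle transcripts affected the calls. With the kind of array as a term 25 genes were called, the 16 among them; without 4-month replicate 3, 20 genes were called, 1 higher and 19 lower, and 3 of the 16 (Arntl, Dbp and Kcnn4) were still among them. The balance of rises and falls also turned without 4-month replicate 1 (10 higher, 16 lower) or replicate 2 (10 higher, 17 lower) and with all 10 adipose arrays (43 higher, 156 lower).

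The circadian clock held the 2 largest rises and the 4 largest falls among the called genes. The labels do not give the hour of dissection for either age group. An effect of the time of day apart from age was thus not tested. In the core loop the proteins of Arntl (also called Bmal1) and Clock, or its relative Npas2, bind E-boxes and switch on the Per and Cry genes, whose products then repress them. The same pair drives Nr1d1 and Nr1d2, the REV-ERB receptors, which repress Arntl and Nfil3 through elements shared with the ROR receptors (ROREs). Dbp, Tef and Hlf encode activators that bind D-boxes, where the repressor encoded by Nfil3 competes with them.

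The 3 motifs were looked up on both strands in RefSeq promoter windows of build GRCm38.p6, 250 bases before to 50 bases after each annotated start. The letters searched were CACGTG for the E-box, TTATGNAA for the D-box and AANT followed directly by AGGTCA for the RORE. 15 of the 17 measured clock genes had a window. The matches shown are examples, with 10 flanking bases and the motif in capitals. Arntl holds a RORE just after 1 of its annotated starts (chr7:113207528-113207557, plus strand), and Per3 holds a pair of D-boxes (chr4:151044806-151044833 and chr4:151044853-151044880, minus strand). Tef holds an E-box before each of its annotated starts (chr15:81802536-81802561 and chr15:81811266-81811291, plus strand).
Arntl RORE: ggaaggcagaAAGTAGGTCAgggacggagg
Per3 upstream D-box: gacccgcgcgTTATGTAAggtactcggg
Per3 downstream D-box: ccgcccgcggTTATGTAAcccccgccgt
Tef first-start E-box: gctgtggctcCACGTGctgcagctgg
Tef second-start E-box: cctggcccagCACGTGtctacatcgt
Of the 15 genes, 1 held a RORE (Arntl), 2 a D-box (Per1 and Per3) and 4 an E-box (Bhlhe41, Cry1, Per1 and Tef). Dbp, Nr1d1 and Nr1d2 thus held no E-box and Nfil3 no RORE in these windows. Outside the clock, not all genes that passed an adjusted p of 0.05 had a window. Of those with one, Rmnd1, Kcnn4 and Map4k1 held E-boxes. The others, such as Cdkn1a, Adamts1 and Glrx, held none of the 3 motifs. Of all 32851 promoter windows, 0.219% held the RORE, 3.38% the D-box and 7.15% the E-box. The 15 genes have 20 windows and a gene counted if any of them matched. The counts of genes and the shares of windows thus differ in unit. These are matches of letters; the arrays measured no binding.

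Arntl, the positive arm of the loop, was at 7.30, 5.88, 7.15, 7.13 and 7.77 in the 18-month arrays and at 5.01, 4.82 and 3.50 in the 4-month arrays. The groups did not overlap, and the lowest 18-month array was replicate 2. Arntl rose by 2.60 ± 0.36 (SE), or 6.08-fold, with an adjusted p of 3.40e-05 (limma). Nfil3, the D-box repressor, was at 6.35, 5.55, 6.79, 7.06 and 6.54 at 18 months and at 3.81, 4.61 and 3.44 at 4 months. It rose by 2.51 ± 0.53, or 5.68-fold (adjusted p 0.0202, limma), again with replicate 2 the lowest of the older arrays.

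The D-box activators moved the other way. Dbp was at 5.06, 7.99, 5.31, 6.38 and 4.99 in the 18-month arrays, against 8.99, 8.83 and 9.57 in the 4-month arrays. It averaged 5.94 ± 1.27 at 18 months and 9.13 ± 0.39 at 4 months (SD, n = 5 and 3), a change of -3.19 ± 0.56 (adjusted p 0.00226, limma), the largest fall of any gene. 18-month replicate 2 lay closest to the 4-month values, and all 5 were below them. Tef was at 6.20, 6.89, 6.27, 6.82 and 6.15 at 18 months, against 7.32, 7.29 and 8.03 at 4 months, and fell by 1.08 on the log2 scale (SE 0.23, adjusted p 0.0221, limma). Hlf, the third gene of that family, was at 5.40 to 6.69 at 18 months and 6.18 to 7.53 at 4 months; the groups overlapped and its change of -0.91 ± 0.30 did not pass (adjusted p 0.374).

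Of the genes for repressors of Arntl and of the E-box genes, Per3 and Nr1d2 fell and the other measured ones did not pass. Per3 was at 5.30, 5.65, 4.98, 5.60 and 4.63 in the 18-month arrays, against 6.56, 6.34 and 7.79 in the 4-month arrays, and fell by 1.67 on the log2 scale (SE 0.28, adjusted p 0.00150, limma) with no overlap. Nr1d2 (REV-ERB beta) was at 6.21, 8.64, 5.85, 7.59 and 6.38 at 18 months, against 8.54, 8.30 and 8.91 at 4 months. Its change was -1.65 ± 0.37 (adjusted p 0.0315, limma), and replicate 2 lay within the 4-month range while the other 4 older arrays lay below it. Nr1d1 (REV-ERB alpha) had a change of the same size, -1.65, but with an SE of 0.57 it did not pass (adjusted p 0.417); 18-month replicate 2 was at 9.91 and the other 4 at 6.91 to 8.88, against 9.38 to 10.14 at 4 months. Per1 (-0.02 ± 0.45), Per2 (-0.43 ± 0.35) and Cry1 (0.49 ± 0.22, adjusted p 0.659) overlapped between the groups and did not pass, and the signs of the repressor genes thus differed.

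Of the 17 measured clock genes, 2 rose, 4 fell and 11 did not pass, whereas 0.183% of all genes passed. Clock (0.86 ± 0.21, adjusted p 0.0604), Npas2 (0.93 ± 0.27, adjusted p 0.255) and Bhlhe40 (0.83 ± 0.30, adjusted p 0.458), a repressor of E-box genes, did not pass, although no 18-month array of these 3 genes was within the 4-month range. 12 of the 17 had an unadjusted p below 0.05, 6 in each direction, against 6.43% of all genes. 8 of the 17 had groups that did not overlap, 5 higher and 3 lower at 18 months, against 6.53% of all genes. The list was chosen with results of these data known, so the counts are a description.

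The 2 arrays set aside were chosen by other transcripts and took no part in the calls. They gave 4.43 and 4.16 for Arntl, 4.17 and 4.43 for Nfil3, 9.02 and 9.28 for Dbp, and 6.34 on both arrays for Per3, all beyond the 18-month range on the 4-month side. Over the 16 called genes both arrays lay there for 10 (62.5%), against 25.2% of all genes. Nr1d2, Dtx4, Fam110c, Rmnd1, Kcnn4 and Atp6v0d2 were the exceptions. The calls rested on the same 18-month arrays. A higher share among called genes than among all genes was thus favoured in advance, and the shares are a description.

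Each call was refitted without each of the 8 arrays in turn. Arntl (changes of 2.13 to 2.90) and Dbp (-3.70 to -2.95) passed in all 8 fits. Per3 passed in 7 of 8, with an adjusted p of 0.0841 without 4-month replicate 3. Nfil3 passed in 6 of 8 and was lost without 4-month replicate 1 or 3, Tef passed in 4 and Nr1d2 in 3. Among the 5 arrays with mesothelial transcripts Arntl changed by 2.62 and Dbp by -3.08, with adjusted p values of 4.27e-04 and 0.0271 (limma). The 3 arrays without them, where 4-month replicate 1 is the sole 4-month array and is assumed to vary like the other groups, gave 2.44 and -3.30. Without the 2 muscle-flagged arrays the changes were 2.33 and -3.01 (adjusted p 4.19e-04 and 0.00682, limma).

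**Figure D2:**
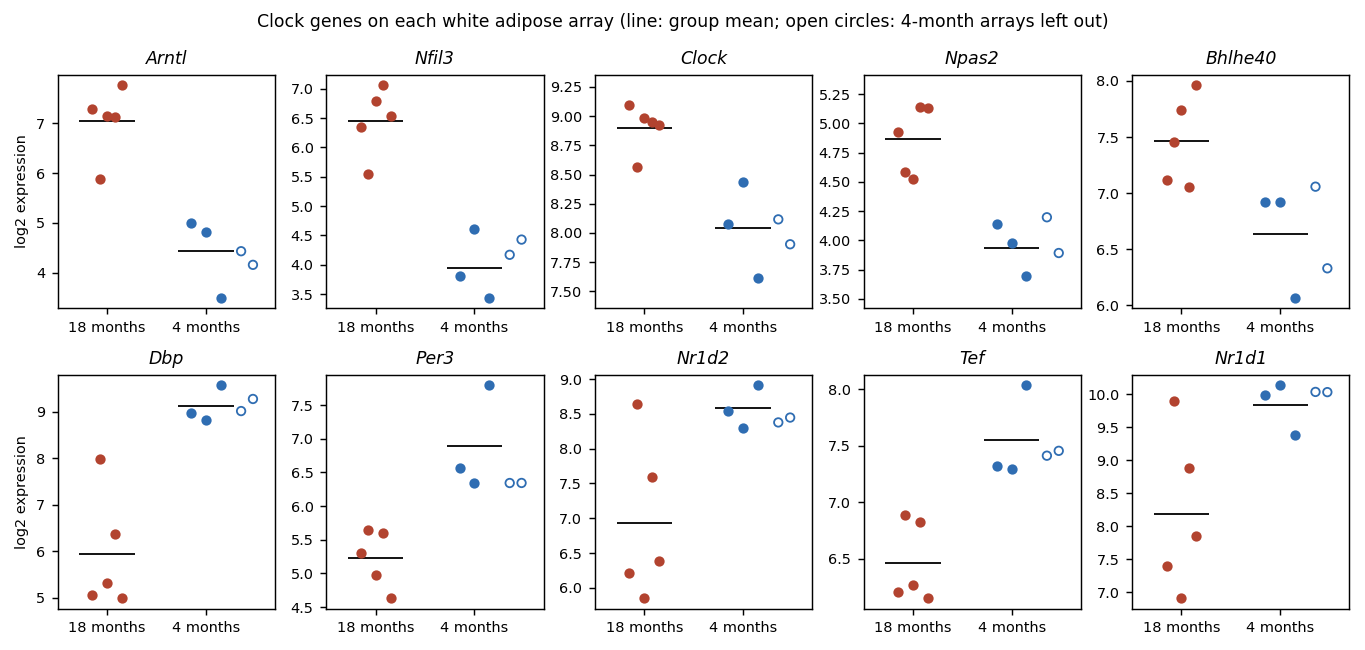
log2 expression of 10 clock genes on each adipose array, 18 months (red) left of 4 months (blue), with the group mean as a line and the 2 arrays set aside as open circles. Arntl, Nfil3, Clock, Npas2 and Bhlhe40 lie higher and Dbp, Per3 and Tef lower in all 5 18-month arrays than in the 3 4-month arrays, whereas Nr1d2 and Nr1d1 overlap through 18-month replicate 2.

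The clock genes were then set beside the other tissues, whose arrays come partly from the same mice. At 18 months every bone array and most arrays of skin, muscle and thymus came from mice that also gave an adipose array. At 4 months no bone array did. The fit took all arrays as independent, so similar changes in several tissues do not count as separate observations. An adjusted p of 0.05 was passed by 0.107% of all genes in skin, 8.73% in muscle, 1.36% in bone and 0.600% in thymus. Dbp changed by -2.34 ± 0.49 in skin (adjusted p 0.0161) and -2.22 ± 0.49 in muscle (adjusted p 0.00238), but by -0.78 ± 0.49 in thymus and -0.08 ± 0.49 in bone, which did not pass. Per3 changed by -1.36 ± 0.25 in skin (adjusted p 0.00203) and -1.28 ± 0.25 in muscle (adjusted p 5.79e-04), and by -0.25 in thymus and -0.19 in bone, which did not pass either. Arntl rose by 1.47 ± 0.31 in muscle (adjusted p 0.00188), while its 1.18 ± 0.31 in skin (adjusted p 0.206) and the values of 0.06 in thymus and 0.18 in bone did not pass (limma throughout). The difference of the adipose change from the mean of the other 4 tissues was 1.88 for Arntl (adjusted p 0.0635), -1.83 for Dbp (adjusted p 0.515) and -0.90 for Per3 (adjusted p 0.542). An adipose change larger than elsewhere was thus not shown for any of the 3.

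18-month adipose replicate 2 came from mouse A11, which also gave 18-month arrays of the other 4 tissues. Its Dbp value was 7.99 in adipose tissue, against 4.99 to 6.38 in the other 18-month mice and 8.83 to 9.57 at 4 months. In muscle it was 9.36, against 6.81 to 7.59 in the other 18-month mice and 9.83 to 10.04 at 4 months. In thymus it was 6.79, against 5.47 to 6.46 in the other 18-month mice and 6.71 to 7.15 at 4 months, and in bone 7.09, against 4.89 to 6.21 in the other 18-month mice and 5.40 to 6.32 at 4 months. In skin it was 7.49, within the 5.38 to 7.65 of the other 18-month mice and below the 8.11 to 9.31 of 4 months. Mouse A11 was thus the highest 18-month mouse for Dbp in 4 of 5 tissues. Its muscle Arntl value of 6.70 was likewise below the 7.94 to 8.28 of the other 18-month mice, beside 5.82 to 6.69 at 4 months. What sets this mouse apart was not tested.

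**Figure D3:**
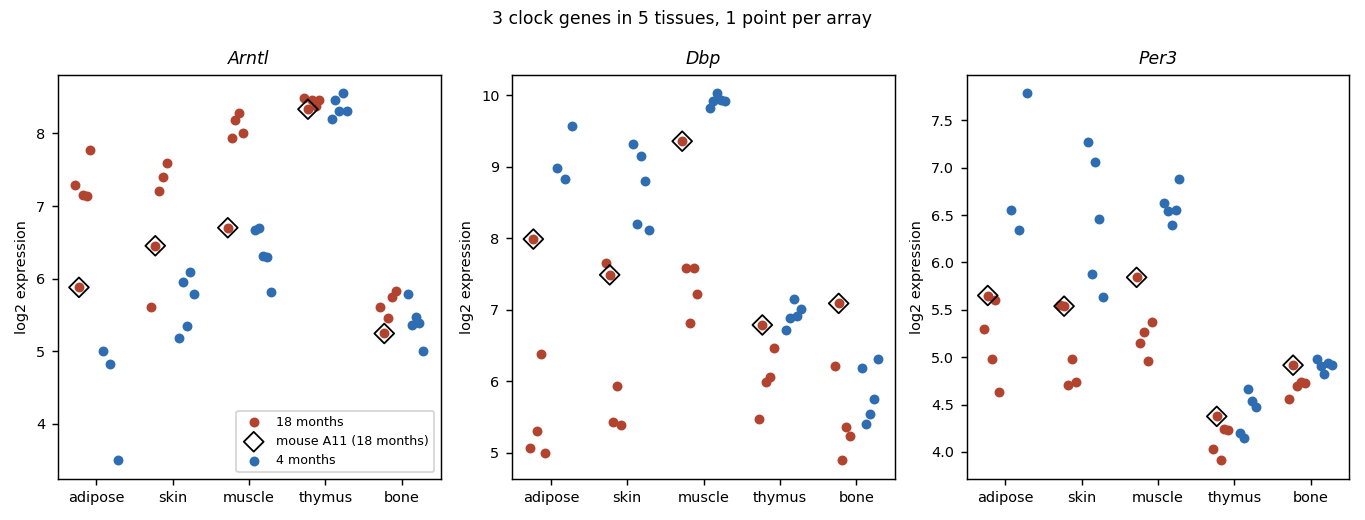
log2 expression of Arntl, Dbp and Per3 in 5 tissues, 1 point per array, with 18 months (red) left of 4 months (blue) in each tissue and mouse A11 framed. In adipose tissue and muscle the framed points lie nearest to the 4-month values, for example 9.36 for Dbp in muscle beside 6.81 to 7.59 in the other 18-month mice.

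Cdkn1a had the largest rise among the called genes outside the clock. It encodes p21, an inhibitor of cyclin-dependent kinases that p53 induces, and was at 6.89, 7.80, 6.97, 7.41 and 7.28 in the 18-month arrays and at 4.91, 6.01 and 3.72 in the 4-month arrays. The groups did not overlap, the 4-month values spread over more than 2 log2 units, and the change was 2.39 ± 0.45, or 5.25-fold (adjusted p 0.00532, limma; 0.118 without 4-month replicate 3). In the other tissues Cdkn1a changed by 1.84 in muscle (adjusted p 0.00165) and -1.42 in bone (adjusted p 0.0455), with 1.03 in thymus and 0.26 in skin not passing. Of 19 measured senescence and p53 target genes Cdkn1a alone passed, against 0.183% of all genes. The list median was 0.04. Mdm2, another p53 target, changed by 0.38 ± 0.16 and did not pass (adjusted p 0.635). Cdkn2a, which encodes the senescence marker p16, was at 4.30 to 4.76 at 18 months and 4.19 to 4.51 at 4 months, a change of 0.11 ± 0.15 that did not pass.

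Adamts1, a secreted protease that cleaves matrix proteoglycans, was at 9.19, 8.98, 9.57, 8.72 and 8.78 at 18 months and at 8.00, 7.68 and 7.43 at 4 months, a change of 1.35 ± 0.31 (adjusted p 0.0399, limma). It was the sole member to pass among 21 matrix proteases and inhibitors, against 0.183% of all genes. In that list the membrane protease Mmp14 followed with 0.70 (adjusted p 0.453, limma). Glrx, which encodes the thiol reductase glutaredoxin, was at 6.81, 7.64, 7.24, 7.55 and 7.41 at 18 months, against 6.15, 6.45 and 5.55 at 4 months, and rose by 1.28 ± 0.26 (adjusted p 0.0124, limma). No 18-month array of either gene fell within the 4-month range, and both passed in fewer than 8 of the 8 fits without 1 array, Adamts1 in 3 and Glrx in 7.

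Dtx4, a member of the Deltex family of ubiquitin ligases, was at 7.56, 6.99, 7.34, 8.23 and 8.16 at 18 months and at 6.50, 6.52 and 5.70 at 4 months, a rise of 1.42 ± 0.26 (adjusted p 0.00440, limma). The 4-month arrays set aside did not both lie below the 18-month range. Zdhhc2, a palmitoyltransferase, was at 7.13 to 8.13 at 18 months and 5.75 to 6.91 at 4 months, a rise of 1.19 ± 0.23 (adjusted p 0.0118, limma). Rmnd1, needed for translation in mitochondria, rose by 1.40 ± 0.31 (adjusted p 0.0354), but its value rests on 1 probe set; it was at 5.12 to 6.53 at 18 months and 4.52 to 4.55 at 4 months. These 3 genes did not overlap between the groups, but Rmnd1 passed in 2 of the 8 fits without 1 array.

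3 of the genes that rose did overlap. Nap1l5, an imprinted gene of the nucleosome assembly family, was at 7.02 and 7.78 in the 2 muscle-flagged arrays and at 4.15 to 5.54 in the other 18-month arrays, against 3.48 to 4.75 at 4 months. Its change of 1.78 ± 0.39 (adjusted p 0.0248) had an adjusted p of 0.370 without the flagged arrays. Fam110c was at 5.33 to 5.60 in 4 of the 18-month arrays and 4.07 in replicate 5, against 3.27, 5.20 and 4.03 at 4 months (1.03 ± 0.23, adjusted p 0.0282, limma). It passed in 2 of the 8 fits without 1 array, with changes of 0.58 (without 4-month replicate 1) to 1.54 (without 4-month replicate 2). Atp6v0d2, a subunit of the proton pump of osteoclasts and macrophages, was at 3.96, 5.21, 5.17, 3.83 and 5.84 at 18 months, against 3.46, 3.95 and 3.76 at 4 months (1.08 ± 0.25, adjusted p 0.0399, limma). With the adipose arrays alone the SEs of Nap1l5, Fam110c and Atp6v0d2 were larger, at 0.85, 0.48 and 0.46.

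Kcnn4, a calcium-activated potassium channel of blood and immune cells, was the one called fall outside the clock. It was at 4.30, 3.98, 4.67, 4.31 and 4.53 at 18 months and at 5.98, 5.50 and 4.80 at 4 months (-1.07 ± 0.25, adjusted p 0.0399, limma). The highest 4-month array was replicate 1, the array with lymphocyte transcripts, without which the adjusted p was 0.298. Map4k1, a kinase of blood cells, showed the same array on top: 4.55 to 4.75 at 18 months, against 6.21, 5.11 and 4.94 at 4 months (-0.76 ± 0.15, adjusted p 0.0124, limma; 0.404 without replicate 1).

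**Figure D4:**
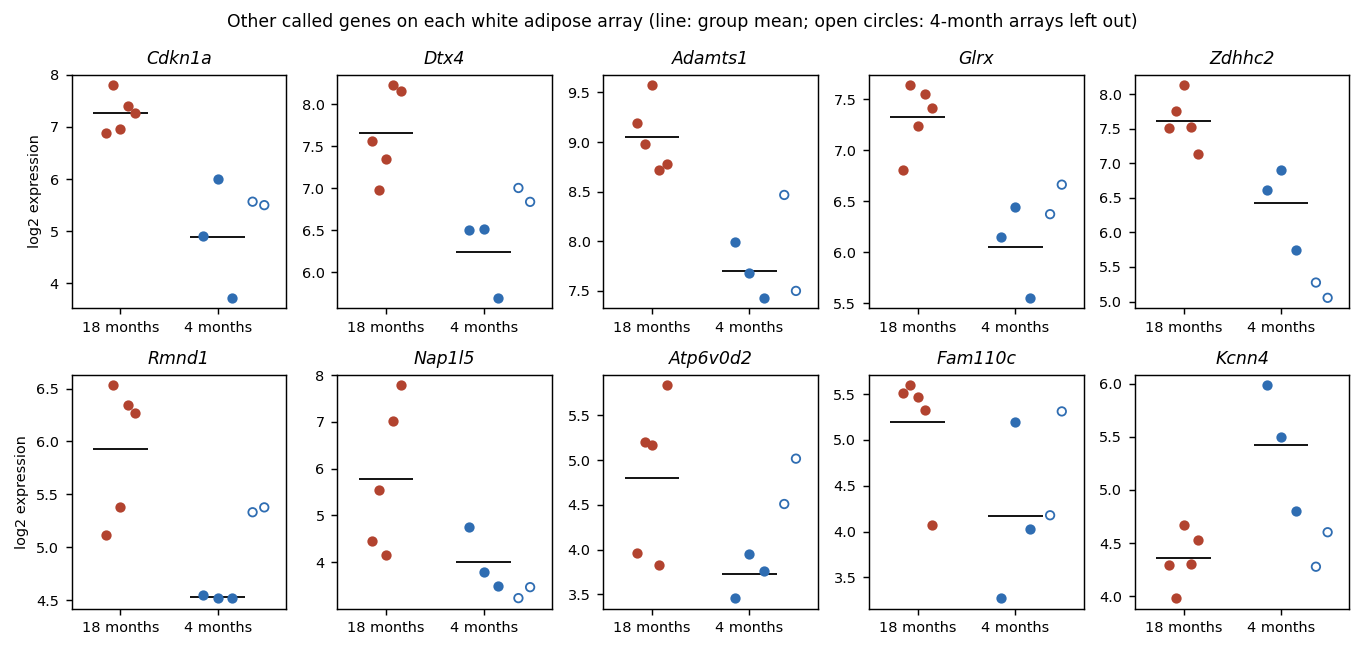
log2 expression of the 10 called genes that are not clock genes on each adipose array, 18 months (red) left of 4 months (blue), with the group mean as a line and the 2 arrays set aside as open circles. Cdkn1a, Dtx4, Adamts1, Glrx, Zdhhc2 and Rmnd1 lie higher and Kcnn4 lower in all 5 18-month arrays, whereas Nap1l5, Atp6v0d2 and Fam110c overlap with the 4-month arrays.

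The other 13 genes past an adjusted p of 0.05 changed less than 2-fold. Bcl2l10, a relative of the apoptosis regulator Bcl2, rose by 0.66 ± 0.11 at low values (3.60 to 4.31 at 18 months, against 3.16 to 3.60 at 4 months, where the ranges touch; adjusted p 8.06e-04, limma). The SE of Bcl2l10 was 0.19 with the adipose arrays alone. Xrcc3 (0.66), which acts in recombinational DNA repair, and Cables1 (0.80), a binding partner of cyclin-dependent kinases, rose with no overlap between the groups. Pcdhb22 (0.72) and Vwa3a (0.34) also rose with no overlap. Adap1, Slc44a2, Mthfd1l, 2010209O12Rik, Mettl7b, Odf3l1, Cldn15 and Map4k1 fell by 0.69 to 0.96 on the log2 scale. Cldn15, a claudin, was the 1 of 14 mesothelial markers that passed, against 0.183% of all genes. Cldn15 and Mettl7b stood low on the arrays without mesothelial transcripts at both ages. Cldn15 was at 4.84 and 4.32 there at 18 months, against 5.05 to 5.40 on the other 18-month arrays. It was at 5.08 in 4-month replicate 1, against 6.36 and 6.13 in the other 4-month arrays. Mettl7b was at 3.44 and 3.13, against 4.26 to 4.42, at 18 months. In 4-month replicate 1 it was at 3.83, against 5.25 and 5.17. With the kind of array as a term the adjusted p values of Cldn15 and Mettl7b were 0.00833 and 4.28e-07 (limma). With the adipose arrays alone and no such term their SEs were 0.34 and 0.42, against 0.20 and 0.18 in the main fit.

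None of the genes that define the adipocyte passed, at a share of 0.183% over all genes that would leave most lists of this size without a call. 0 of 23 measured adipocyte markers, 0 of 22 genes of fatty acid and triglyceride synthesis, 0 of 19 of cholesterol synthesis and 0 of 20 of lipolysis and fatty acid oxidation passed, with median changes of -0.12, -0.12, -0.06 and -0.03, against 0.01 over all genes. Lep, which encodes leptin, was at 12.15, 11.07, 12.54, 11.60 and 11.52 at 18 months, against 11.75, 12.07 and 11.86 at 4 months. Cfd, the adipokine adipsin, was at 11.74 to 13.17 at 18 months and 12.53 to 12.94 at 4 months, and Pparg, the transcription factor that makes adipocytes, at 10.01 to 10.48 at 18 months and 9.91 to 10.31 at 4 months. The fatty acid carrier Fabp4 (11.21 to 11.73 at 18 months, 11.61 to 11.96 at 4 months) and the synthase Fasn (10.73 to 12.31 at 18 months, 11.84 to 12.21 at 4 months) overlapped too. However, 3 of the 23 adipocyte markers (Plin, S3-12 and Lipe) lay lower at 18 months without overlap, against 3.28% of all genes, and 0 lay higher. Lipe was at 11.14 to 11.35 at 18 months and 11.52 to 11.65 at 4 months, a change of -0.31 ± 0.46 that did not pass. Of the 23 changes 16 were negative. Changes of these genes had wide errors in the fit over all tissues, such as -0.12 ± 0.93 for Lep and -0.35 ± 0.60 for Fasn; with the adipose arrays alone the SEs were 0.31 and 0.35. The adipocyte transcription factor gene Cebpa (-0.48 ± 0.40) and Taldo1 (-0.60 ± 0.38, adjusted p 0.935), of the pentose phosphate pathway, did not pass.

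No gene of the next structural and metabolic lists passed, at a share of 0.183% over all genes that would leave most such lists without one. 0 of 33 respiratory chain genes passed (median -0.19); Atp5b, a subunit of ATP synthase, was at 11.21 to 11.38 at 18 months and 11.49 to 11.63 at 4 months, a change of -0.26 ± 0.11 that did not pass (adjusted p 0.634). 0 of 40 collagens and matrix genes passed (median -0.27), with the smallest p for Col5a3 (-0.62, adjusted p 0.496). 0 of 21 genes of insulin and IGF signalling passed; Irs3, an insulin receptor substrate, was at 0.73 and Igf1 at 0.66 (adjusted p 0.540 and 0.734). 0 of 16 brown and beige fat genes passed, and Ucp1 itself was raised on 1 of the 8 arrays. 0 of 26 cell cycle genes passed, although Mcm6, part of the replicative helicase, lay lower in all 5 older arrays (5.46 to 5.71 at 18 months, 6.03 to 6.70 at 4 months; adjusted p 0.631).

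Immune lists did not move together. At a share of 0.183% over all genes, most lists of this size would hold no gene that passed. Of 30 macrophage markers Atp6v0d2 alone passed and the median change was 0.01; Emr1, a surface marker of mouse macrophages, was at 8.03 to 9.30 at 18 months and 7.99 to 8.88 at 4 months. Gpnmb (1.43 ± 0.51, adjusted p 0.431), a gene of lipid-laden macrophages, and Fcgr1 (0.76 ± 0.24, adjusted p 0.325) did not pass. Lyz1, a lysozyme, was at 8.97 to 9.37 at 18 months and 10.19 to 10.89 at 4 months with no overlap, but its change of -1.30 ± 0.48 did not pass (adjusted p 0.460) and it rests on 2 probe sets of a gene with a near-identical copy. 0 of 33 cytokine genes passed: the chemokine genes Ccl7 (1.90 ± 0.53, adjusted p 0.195), Ccl8 (1.79 ± 0.56, adjusted p 0.325) and Ccl3 (1.40 ± 0.50, adjusted p 0.431) had the largest values. 0 of 25 interferon response genes passed, with a median of 0.38, 6 of 25 genes at an unadjusted p below 0.05, all higher, against 6.43% of all genes in either direction, and 1.60 ± 0.44 for Ifit1 (adjusted p 0.155). 0 of 22 immediate-early and heat-shock genes passed; the chaperone Hsph1 was at 7.87 to 8.99 at 18 months and 6.92 to 7.45 at 4 months (adjusted p 0.439).

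Lymphocyte and antigen presentation lists had the lowest medians, -0.65 over 16 B and plasma cell genes, -0.60 over 9 MHC class II genes and -0.51 over 27 T and NK cell genes. 0 of these genes passed, against a share of 0.183% over all genes. All 3 lists were highest in 4-month replicate 1. The mean of the MHC class II list was 8.57 on that array, against 6.70 to 7.56 at 18 months and 7.51 and 7.09 on the other 4-month arrays. The mean of the B and plasma cell list was 6.76 on that array, against 3.84 to 5.09 at 18 months and 4.15 and 3.97 on the other 4-month arrays; that of the T and NK cell list was 6.01 there, against 3.94 to 4.43 at 18 months and 3.75 and 3.68. The complement receptor gene Cr2, for example, was at 7.55 in 4-month replicate 1, but at 2.83 to 3.92 at 18 months and 3.01 and 3.03 in the other 4-month arrays, and without that array its change was 0.10. At the other end the muscle fibre list had a median of 1.31, with 0 of 25 passed; its mean was 6.30 and 8.19 in the 2 flagged arrays, 4.11 to 4.22 in the other 18-month arrays and 3.98 to 4.13 at 4 months.

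**Figure D5:**
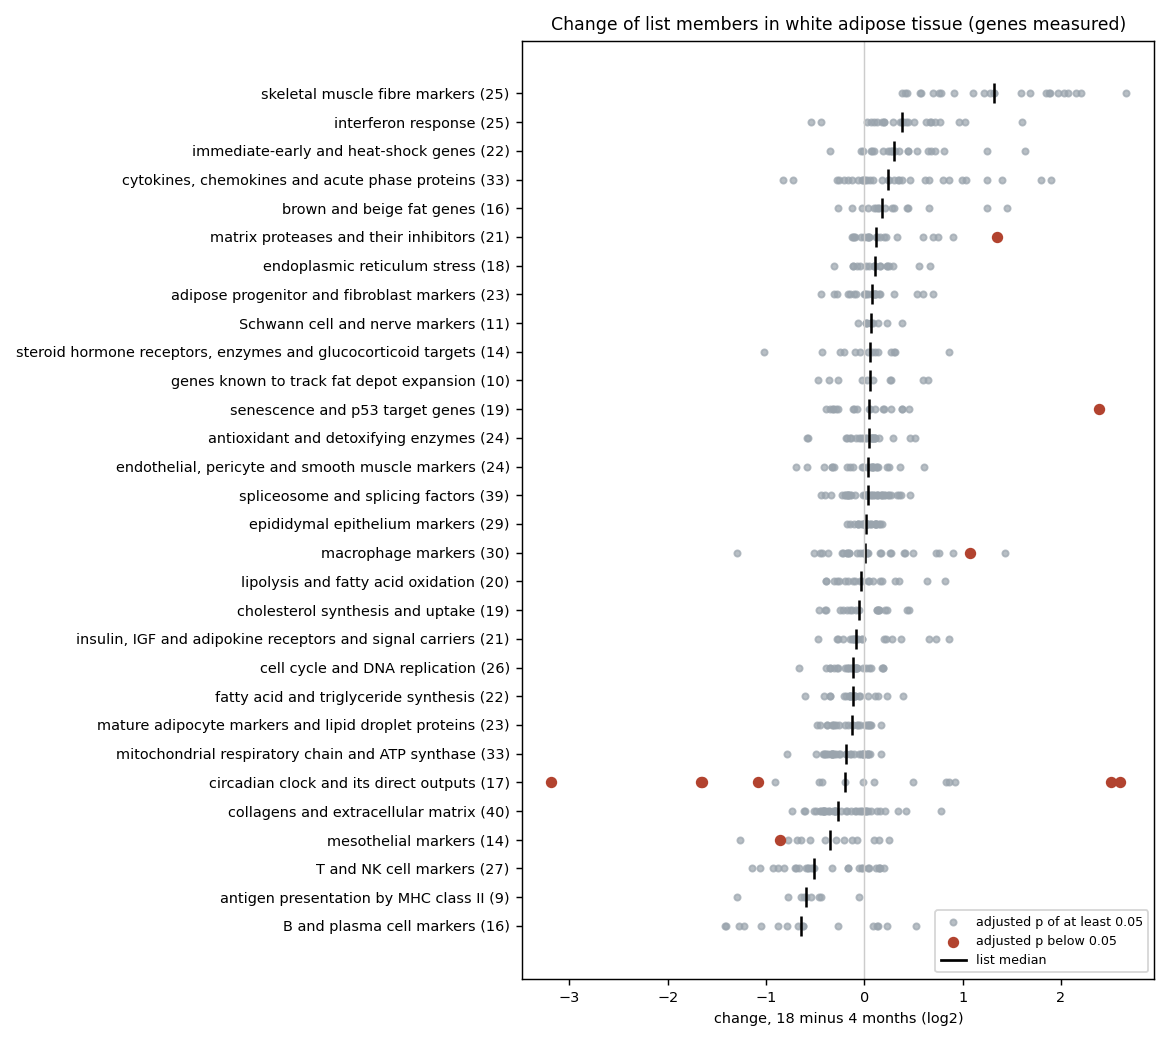
Changes (18 minus 4 months, log2, horizontal axis) of the members of 30 gene lists in adipose tissue, with the number of measured genes in brackets, list medians as black bars and genes past an adjusted p of 0.05 in red. 6 of 17 clock genes are red and spread to both sides, and the muscle and lymphocyte lists have the highest and lowest medians while none of their genes is red.

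The adipose change was next set against the other tissues. The difference from the mean change of skin, muscle, bone and thymus passed for 1 of 15830 genes (0.00632%), Bcl2l10, which changed by 0.66 in adipose tissue and by -0.01 to 0.08 in the other 4 (difference 0.63, adjusted p 0.0267, limma). Before adjustment 758 genes (4.79%) were below 0.05. Next in order were Arntl, Xrcc3 and Cldn15, each with an adjusted p of 0.0635. Against skin, the other tissue with adipocytes beneath it, 0 genes passed (limma) and 789 (4.98%) were below 0.05 before adjustment. Leaving out single adipose arrays gave 1 to 35 genes for the first difference and 0 to 8 for the second.

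Exon usage was measured as a probe set's value minus the mean of its gene's probe sets on the same array, over 11707 genes whose mean level had an unadjusted p of 0.05 or more. 5 genes passed (0.0427%; limma, Simes p per gene, Benjamini-Hochberg over genes): Ghr, Acsm5, Klhdc8b, Slc26a3 and Pygm. 545 genes (4.66%) had an unadjusted Simes p below 0.05. With the 8 adipose arrays alone the same test gave 0 genes and limma's diffSplice gave 101, with 1 of the 5 (Ghr) among them.

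Ghr encodes the growth hormone receptor and has 13 probe sets here. Probe set 5372362 lay far below the mean of its gene, by usage values of -5.54 to -4.24 at 18 months and -7.98 to -7.64 at 4 months. Its log2 signal was 6.44, 6.49, 6.24, 7.48 and 7.75 in the 18-month arrays and 3.37, 4.08 and 3.99 in the 4-month arrays. No arrays overlapped, and its usage changed by 2.81 ± 0.43 (adjusted p 0.00257, limma), the largest of the 5. The 4-month arrays set aside gave 4.89 and 5.66, between the groups. In diffSplice the adjusted p was 1.08e-18, and with the kind of array as a term in the main test it was 0.00188, but without the 2 muscle-flagged arrays, which had the highest signals, it was 0.0830.

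Acsm5, a mitochondrial acyl-CoA synthetase, had the second smallest p. Its probe set 5384968 gave 6.02, 3.56, 4.34, 5.96 and 5.16 at 18 months and 6.00, 6.33 and 7.50 at 4 months, and its usage relative to the gene was 0.73, -0.92, -0.46, 0.89 and 0.56 at 18 months, below the 1.37, 1.52 and 1.42 of 4 months (-1.28 ± 0.20, adjusted p 0.00257, limma). The adjusted p of this gene in diffSplice was 0.996. Pygm, the glycogen phosphorylase of muscle, was flagged through probe set 5526691, at 8.79 and 10.97 in the 2 arrays with muscle transcripts and at 3.78 to 5.66 elsewhere, and its adjusted p was 0.586 without them. Klhdc8b (probe set 4560989, -0.97 ± 0.18, adjusted p 0.0361) lay lower in all 5 18-month arrays, while Slc26a3 (probe set 4547848, 1.33 ± 0.25, adjusted p 0.0403), an anion exchanger, overlapped. Without 4-month replicate 2 none of the 5 passed.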

How the data were processed

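Labelled single-stranded cDNA made from total RNA was hybridised to Affymetrix Mouse Exon 1.0 ST arrays. The deposited log2 values, 1 per probe set and array (194293 probe sets, 65 arrays), were made by the authors with robust multi-array averaging, adjustment for probe GC content, quantile normalization and median polish in Partek; the labels also name GCRMA and build mm9. 179614 probe sets (92.4%) carried 1 gene symbol and were averaged by gene. Arrays have no read depth, so their number limits the precision. Group means of 63 arrays were fitted together with limma 3.58.1 in R 4.3.3, without the 2 arrays that carried epididymis transcripts, and p-values were adjusted by Benjamini-Hochberg over all 15830 genes. For exon usage, probe sets averaging at least 3 in genes with at least 3 of them entered, and genes whose mean had an unadjusted p below 0.05 were removed. The fits were tested on simulated data. Symbols and promoters came from RefSeq (GRCm38.p6); 13745 symbols were current and 2046 matched 1 synonym.

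The arrays and gene lists were chosen with earlier results of these data known. Named genes were the called genes without overlap, up to 3 genes of each list by p, the 5 and 3 leading differences from the other tissues and from skin, the 5 leading exon usage genes and a fixed set of adipose genes; other called genes and markers were named after their values were seen. Alternatives varied the arrays, the summary of probe sets, the normalization, the filter and the blocks. Same-numbered replicates were different mice.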

Additional observations from a re-analysis of the deposited data

Results flagged for a closer look

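In 4 of the named genes 1 of the 5 18-month arrays stood apart from the others by Dixon's test, among 69 genes tested, and chance alone flags some groups at this level. Fam110c was at 4.07 in 18-month replicate 5, Cr2 at 3.92 in replicate 4, Col5a3 at 5.61 in replicate 2 and Ucp1 at 9.54 in replicate 5. Replicates 4 and 5 are the arrays with muscle transcripts.

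Bcl2l10 differed in its age change between adipose tissue and the mean of the other 4 tissues by 0.63 (adjusted p 0.0267, limma).

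In the 4-month arrays left out of the comparison, 17 of 29 measured epididymis markers were at least 2 log2 units above the 8 arrays compared. These transcripts were the reason for leaving the arrays out, so the count restates that choice.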

How the results depend on the processing

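All 16 called genes kept their sign in every alternative. Their number was 0 with the adipose arrays alone, also after quantile normalization within them or with the kind of array as a block, 199 with all 10 adipose arrays, 45 without the muscle-flagged arrays, 29 with no 2-fold threshold and 11 to 27 without 1 array. Of the alternatives chosen after seeing the data, the kind of array as a block gave 25, the arrays with mesothelial transcripts alone 37 and those without them alone 190, where the 4-month group is 1 array assumed to vary like the other groups. The replicate block gave 57 called genes, 77 and 43 genes for the differences from the other tissues and from skin, and 13 for exon usage. The numbers do not pair the mice (correlations of deviations -0.37, 0.22 and 0.07). In the comparison the muscle-flagged arrays, 18-month replicates 4 and 5, have no 4-month array of the same number. The median change over all genes with the replicate block was 0.0241, the same as without those arrays. For the changes the block is thus not a separate alternative to leaving them out. The cause of the other shifts was not tested.

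The difference from the other tissues (1 gene) passed for 87 genes with all 10 arrays, 44 without the flagged arrays, 3 with mouse as a random block, 0 with medians over probe sets, 7 with probe sets of at least 5, 4 with array weights, 22 with the kind of array, 27 and 218 among arrays with and without mesothelial transcripts, and 1 to 35 without 1 array. The difference from skin (0 genes) passed for 10, 29, 1 (medians), 1 (probe sets of at least 5), 1 (kind of array), 15 and 148 genes in the matching fits, and 0 to 8 without 1 array. Exon usage (5 genes) passed for 0 genes with the adipose arrays alone, 101 by diffSplice, 19 with all 10 arrays, 2 with a filter at 5, 22 with no removal of genes and 0 to 13 without 1 array.

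Of 1515 values for named genes, 31 changed sign, each for a gene that did not pass. Adipoq was at -0.028 with all 10 arrays, -0.031 among mesothelial arrays, -0.0031 with mouse as a block and -0.098 with medians, and ranged over -0.083 to 0.063 without 1 array. The ranges without 1 array were -1.70 to 0.16 for Cd3d, -2.28 to 0.019 for Cd79b, -2.11 to 0.64 for Cd8a and -2.17 to 0.10 for Cr2, each positive without 4-month replicate 1, and -0.022 to 0.42 for Emr1, -0.31 to 0.060 for Lep and -0.066 to 1.59 for Ucp1. Among mesothelial arrays Cd3d was at 0.074, Cd79b at 0.035, Cd8a at 0.43 and Emr1 at -0.22. Among arrays without mesothelial transcripts Cdkn2a was at -0.11, Cebpa at 0.14, Cfd at 0.14, Fasn at 0.19 and Msln at 0.017. Without the flagged arrays, and equally with the replicate block, Emr1 was at -0.035, Lep at 0.027 and Ucp1 at -0.062. Lep was at 0.26 with all 10 arrays. Of 660 list medians, 617 moved by less than the spread between replicates.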
